A study of Homo sapiens with 4 samples.

Results

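Genes of serine synthesis and of the ATF4 response were followed in HepG2 cells after a short hairpin RNA (shRNA) against STAT3. They were chosen by name (ATF4, DDIT3, TRIB3, CHAC1, ASNS, PHGDH, PSAT1, PSPH, SHMT2 and MTHFD2), with no measured value in the rule, and all 10 were found among 27452 genes in the count table. HepG2 is an established human hepatoma line. The study profiled RNA from 2 libraries of cells carrying a control hairpin (Ctrl shRNA) and 2 of cells carrying a STAT3 hairpin (STAT3 shRNA), and asked what knockdown of this cytokine-activated transcription factor did to other genes. All cells were grown in DMEM with 10% fetal bovine serum, and no other agent, genotype or time point distinguishes the groups in the labels. The labels leave it unsaid whether the libraries within a group are separate cultures or clones and whether they carry the same hairpin. The p-values therefore measure only how much these libraries vary, which may be technical, and other effects of the hairpins cannot be told apart from those of losing STAT3.

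ATF4 is a transcription factor whose protein is made preferentially when eIF2 alpha is phosphorylated, as happens when amino acids run short, when the endoplasmic reticulum is stressed or when mitochondria fail. It switches on genes of amino acid uptake and synthesis, and with prolonged stress also DDIT3 and other genes tied to cell death. PHGDH, PSAT1 and PSPH turn a glycolytic intermediate into serine, and SHMT2 and MTHFD2 then pass a carbon unit from serine to folate in mitochondria. Several of these enzymes are known targets of ATF4.

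Depth was 17694642 to 25862027 reads per library. Levels are given as CPM, read counts scaled to a common library size with TMM factors. STAT3 had 245.03 and 244.3 CPM with the control hairpin and 34.7 and 36.1 CPM with the STAT3 hairpin, a difference in the direction the labels give (log2 fold change -2.79, edgeR adjusted p = 3.28e-07). Of 13 hepatocyte markers 6 were measured here, and their summed level was only 3.34 to 8.67 CPM. Albumin (ALB) had 0 reads in 3 libraries and 3 reads in STAT3 shRNA replicate 2, and apolipoprotein A1 (APOA1) had 0, 0, 1 and 2 reads. Of the 2 that were tested HNF4A rose, from 24 and 34 reads in Ctrl shRNA to 192 and 91 in STAT3 shRNA, and transferrin (TF) fell, from 38 and 41 to 24 and 8 reads. The labelled liver origin therefore goes against these markers, and the cells are called here by their label only. Of 17 markers of blood, endothelial, stromal, squamous, endocrine and red cells 12 were measured, with summed levels of 65.6 and 77.0 CPM in Ctrl shRNA and 65.4 and 67.2 CPM in STAT3 shRNA. KRT5 was at 0 in every library. Of the 6 of these markers that were tested 3 rose, among them CD68 (10.4 and 14.4 to 24.0 and 27.9 CPM), and 1 fell, COL1A1 (38.1 and 43.2 to 15.0 and 14.3 CPM). That is 66.7% of these 6 and 100% of the 2 hepatocyte markers, against 35.5% of all tested genes (test given below). The part of the markers in the results below was not tested.

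A motif found in the promoters of many ATF4-regulated genes is the C/EBP-ATF response element, whose core was searched as TGATGNAA on both strands in RefSeq promoter windows (GRCh38.p14, 250 bases before to 50 after an annotated start). Windows were found for 8 of the 10 genes (PSPH and SHMT2 had none), and 2 of these 8, CHAC1 and ASNS, held the core, against 4.46% of 27305 genes with a window. The sites are shown because they place the 2 genes beside MTHFD1L and ATF3, relatives of the 10 that hold the same core but differed between the groups. Each line is 5′ to 3′ on the strand of the gene, and capitals mark the core or its reverse complement.
CHAC1: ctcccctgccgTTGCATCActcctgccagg
ASNS: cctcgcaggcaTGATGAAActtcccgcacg
MTHFD1L: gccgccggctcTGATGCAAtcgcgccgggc
ATF3: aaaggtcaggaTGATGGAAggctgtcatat
The CHAC1 stretch is chr15:40953251-40953280 (plus strand) and its core begins 209 bases before the start site, while the ASNS stretch is chr7:97872458-97872487 (minus strand) and its core begins 68 bases before. The MTHFD1L stretch is chr6:150866346-150866375 and the ATF3 stretch chr1:212565205-212565234, both on the plus strand. A second motif, the STAT element TTCNNNGAA (the same on both strands), was found in 0 of the 8 genes and in 9.38% of all genes with a window. A match describes the letters only and is no evidence of binding.

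Across all 15199 genes tested, 35.5% changed between the groups (edgeR quasi-likelihood test, Benjamini-Hochberg adjusted p under 0.05), 16.8% higher and 18.7% lower with STAT3 shRNA. Which direction held more genes turned with the scaling: 2552 rose and 2844 fell here, against 2949 and 2412 with upper-quartile scaling, 1349 and 1186 with the deposited FPKM (limma-trend, pseudocount 1) and 2581 and 2541 with a GC offset. All 10 genes passed the low-count filter. Of them 1 rose (PHGDH), 2 fell (TRIB3 and SHMT2) and 7 did not pass, which is 30.0% changed and close to that background. Their median log2 fold change was 0.02, the same as the 0.02 of all tested genes, and none of the 3 changed by 2-fold or more. More of the 10 genes passed without Ctrl shRNA replicate 1, and fewer without either STAT3 shRNA library. The number of calls over all tested genes moved the same way. Without Ctrl shRNA replicate 1 the log2 fold changes of ATF4, DDIT3 and MTHFD2 were -0.21, 0.97 and 0.19. Without STAT3 shRNA replicate 1 or 2 PHGDH had 0.373 and 0.367, SHMT2 -0.276 and -0.296, and TRIB3 -0.862 and -0.897. In 8 of the 10 genes both libraries of one group lay above both of the other, as in 70.8% of all tested genes. In RNA of whole cultures, fewer expressing cells and less RNA per cell cannot be told apart.

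**Figure D1:**
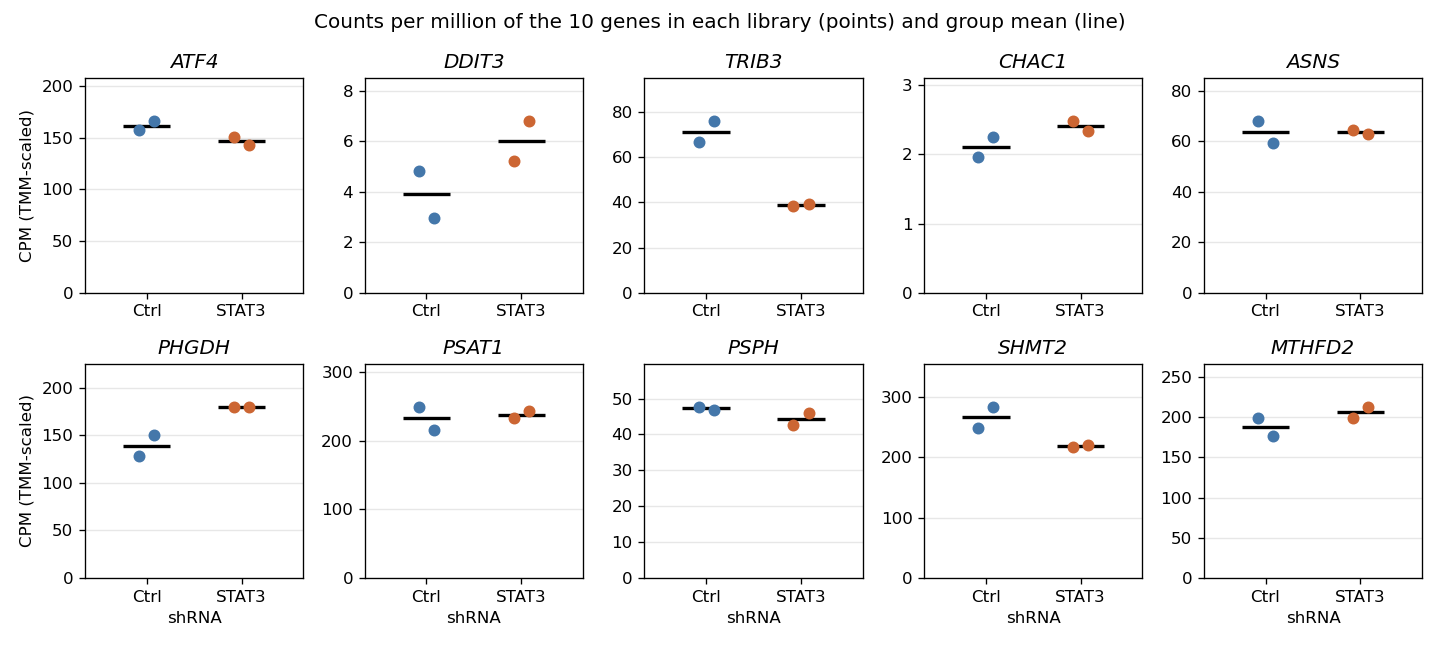
CPM (TMM-scaled, linear axes from 0) of each gene in the 2 Ctrl shRNA and 2 STAT3 shRNA libraries; points are libraries and lines group means. TRIB3 lies near 38.7 CPM with STAT3 shRNA against 71.2 CPM with Ctrl shRNA, PHGDH is higher and SHMT2 lower with STAT3 shRNA, and the points of ASNS and PSAT1 overlap.

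ATF4 itself (ENSG00000128272.14; chromosome 22, 39519695 to 39522685, plus strand) was at 157.1 and 166.0 CPM in Ctrl shRNA and at 150.5 and 143.2 CPM in STAT3 shRNA. All values lay within a narrow band, slightly lower with STAT3 shRNA. ATF4 did not pass, with a log2 fold change of -0.14 ± 0.08 (SE, here and below; 95% interval -0.32 to 0.05; edgeR adjusted p = 0.225). Without Ctrl shRNA replicate 1 it was -0.21 and passed (edgeR adjusted p = 0.026), and with an offset for the GC content of transcripts it was 0.04. Its pseudogenes ATF4P3 (not analysed here) and ATF4P4 (2 reads in all) match part of the transcript. These are levels of messenger RNA, and ATF4 is known to be controlled largely in translation, which RNA levels do not show.

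DDIT3 (CHOP, a C/EBP family factor induced late in the stress response; ENSG00000175197.12; chromosome 12, 57516588 to 57521737, minus strand) was scarce, with 91 and 57 reads in Ctrl shRNA and 139 and 125 in STAT3 shRNA. That gave 4.83 and 2.98 CPM against 5.21 and 6.79 CPM, so the groups did not overlap but lay close to each other. The log2 fold change of 0.61 ± 0.27 (95% interval -0.01 to 1.24; edgeR adjusted p = 0.112) did not pass, and it was 0.97 without Ctrl shRNA replicate 1 (adjusted p = 0.00910, edgeR), 0.30 without Ctrl shRNA replicate 2 and 0.42 without STAT3 shRNA replicate 2. Over 982 bases the span of DDIT3 is shared with the opposite-strand gene MARS, which had 13685 reads in all against 412 of DDIT3, and over 1028 bases with MBD6 (2755 reads). MARS itself fell by 0.30 on the log2 scale (edgeR adjusted p = 0.0203). Use of strand is not given in the sources used here, so the value of DDIT3 is uncertain.

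TRIB3 encodes a pseudokinase that ATF4 and DDIT3 induce and that in turn restrains ATF4 and the kinase AKT (ENSG00000101255.11; chromosome 20, 362835 to 397559, plus strand). It was at 66.6 and 75.9 CPM in Ctrl shRNA and at 38.3 and 39.2 CPM in STAT3 shRNA, means of 71.2 ± 6.55 and 38.7 ± 0.651 CPM (SD, n = 2 each). Both STAT3 shRNA libraries lay well below both Ctrl shRNA libraries. The gene fell 1.84-fold, a log2 fold change of -0.88 ± 0.10 (95% interval -1.10 to -0.66; edgeR adjusted p = 0.000327). TRIB3 passed in all 16 alternatives, with log2 fold changes of -1.004 to -0.61 and adjusted p-values up to 0.0172. Its FPKM (fragments scaled to transcript length and library size, as deposited) were 36.3 and 42.1 against 21.9 and 23.4.

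CHAC1, which degrades glutathione and is a sensitive marker of ATF4 activity, was near the limit of what these libraries measure (ENSG00000128965.13; chromosome 15, 40952962 to 40956519, plus strand). It had 37 and 43 reads in Ctrl shRNA and 66 and 43 in STAT3 shRNA, that is 1.96 and 2.25 against 2.48 and 2.34 CPM. The log2 fold change was 0.19 ± 0.30 (edgeR adjusted p = 0.649). Its 95% interval, from -0.49 to 0.87, leaves room for a fall to 0.714 or a rise to 1.83 times the control level, so a change of that size was not detectable at this depth.

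ASNS, asparagine synthetase, which makes asparagine from aspartate and glutamine, is a classical ATF4 target (ENSG00000070669.17; chromosome 7, 97852118 to 97872542, minus strand). It was at 67.9 and 59.2 CPM in Ctrl shRNA and at 64.2 and 63.0 CPM in STAT3 shRNA, the second pair lying inside the range of the first. The log2 fold change was 0.0022 ± 0.096 (edgeR adjusted p = 0.989), with a 95% interval of -0.22 to 0.22. The deposited FPKM gave another picture, 39.4 and 35.9 in Ctrl shRNA and 46.6 and 45.1 in STAT3 shRNA, which do not overlap (log2 fold change 0.28, adjusted p = 0.093 with limma-trend). The transcript length implied by counts and FPKM together was 1686 and 1565 bases in Ctrl shRNA and 1421 and 1453 bases in STAT3 shRNA. The cause of this difference was not tested. A GENCODE gene, AC079781.5, is identical to ASNS over 80.1% of its longest transcript and was not analysed here, so reads of ASNS may be incomplete.

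**Figure D2:**
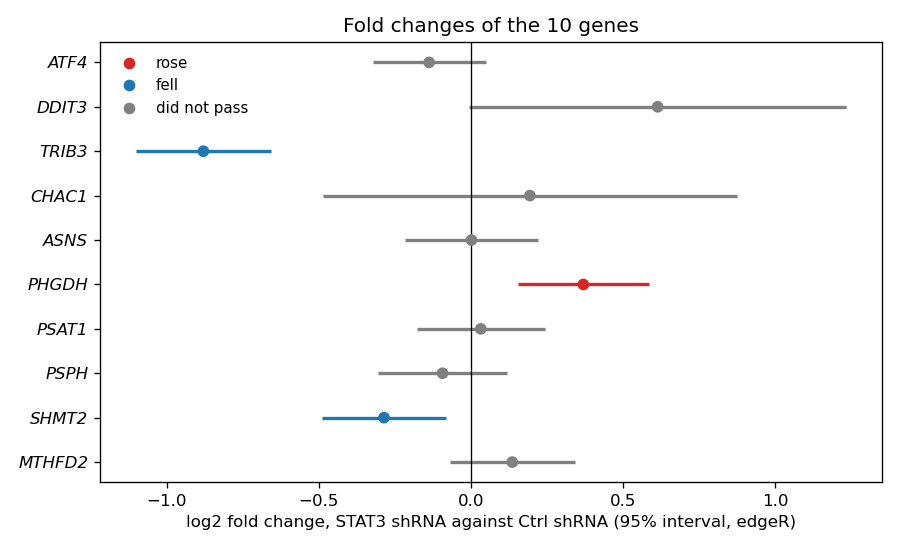
Log2 fold changes (STAT3 shRNA against Ctrl shRNA) of the 10 genes with 95% intervals from the edgeR quasi-likelihood fit on 4 libraries. Intervals of TRIB3 (-1.10 to -0.66), SHMT2 and PHGDH lie clear of 0 and those of the other 7 genes include it; DDIT3 and CHAC1 have the widest.

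Of the 3 enzymes of serine synthesis 1 rose and 2 did not pass. PHGDH, phosphoglycerate dehydrogenase, which opens the pathway (ENSG00000092621.12; chromosome 1, 119648411 to 119744226, plus strand), was at 128.2 and 150.2 CPM in Ctrl shRNA and at 179.6 and 180.2 CPM in STAT3 shRNA. The means were 139.2 ± 15.5 and 179.9 ± 0.386 CPM (SD, n = 2 each), with both STAT3 shRNA libraries above both controls and the controls much further apart. PHGDH rose 1.29-fold, a log2 fold change of 0.37 ± 0.09 (95% interval 0.16 to 0.58; edgeR adjusted p = 0.0159). The call was lost without STAT3 shRNA replicate 1 or replicate 2. There the log2 fold change stayed at 0.373 and 0.367, while the SE was larger (0.157 and 0.155). Without Ctrl shRNA replicate 1 the log2 fold change was 0.23, and without Ctrl shRNA replicate 2 it was 0.48.

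PSAT1, the aminotransferase of the second step (ENSG00000135069.14; chromosome 9, 78297143 to 78330093, plus strand), was at 249.4 and 215.5 CPM in Ctrl shRNA and at 233.2 and 242.4 CPM in STAT3 shRNA. The STAT3 shRNA values lay between the 2 controls. Its log2 fold change was 0.03 ± 0.09 (95% interval -0.18 to 0.24; edgeR adjusted p = 0.809), which leaves room for a 1.18-fold rise at most at that level of confidence.

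PSPH, the phosphatase that releases serine in the last step (ENSG00000146733.14; chromosome 7, 56011051 to 56051604, minus strand), was at 47.8 and 46.7 CPM in Ctrl shRNA and at 42.7 and 46.0 CPM in STAT3 shRNA. These values did not overlap but were nearly adjoining, and the log2 fold change of -0.09 ± 0.09 (95% interval -0.31 to 0.12; edgeR adjusted p = 0.474) did not pass. PSPHP1, an unprocessed pseudogene on the same chromosome, held 25.6 and 26.5 CPM in Ctrl shRNA and 21.7 and 24.9 CPM in STAT3 shRNA. Summed with PSPHP1, PSPH had a log2 fold change of -0.12 (edgeR adjusted p = 0.338).

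SHMT2, mitochondrial serine hydroxymethyltransferase, splits serine into glycine and a folate-bound carbon unit (ENSG00000182199.11; chromosome 12, 57229327 to 57234935, plus strand). It was at 247.6 and 283.4 CPM in Ctrl shRNA and at 216.4 and 219.2 CPM in STAT3 shRNA, means of 265.5 ± 25.3 and 217.8 ± 2.02 CPM (SD, n = 2 each). Both STAT3 shRNA libraries were below both controls, and the controls were again further apart. SHMT2 fell 1.22-fold, a log2 fold change of -0.29 ± 0.09 (95% interval -0.49 to -0.08; edgeR adjusted p = 0.0362). This call was lost with upper-quartile scaling (adjusted p = 0.0706, edgeR) and with a GC offset (log2 fold change -0.10, edgeR adjusted p = 0.290). It was also lost with the deposited FPKM (adjusted p 0.158 and 0.161, limma-trend) and without STAT3 shRNA replicate 1 or 2. In these last 2 fits the log2 fold change stayed at -0.276 and -0.296, while the SE was larger (0.157 and 0.155). Without Ctrl shRNA replicate 2 the log2 fold change was -0.19.

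MTHFD2, the mitochondrial methylenetetrahydrofolate dehydrogenase and cyclohydrolase that follows SHMT2 (ENSG00000065911.12; chromosome 2, 74198562 to 74217565, plus strand), was at 198.4 and 176.1 CPM in Ctrl shRNA and at 198.8 and 212.9 CPM in STAT3 shRNA. The groups adjoined without overlapping. Its log2 fold change was 0.14 ± 0.09 (95% interval -0.07 to 0.34; edgeR adjusted p = 0.274), and of the 16 alternatives it passed in 1, without Ctrl shRNA replicate 1 (log2 fold change 0.19, edgeR adjusted p = 0.0443). With a GC offset the value was -0.03.

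**Figure D3:**
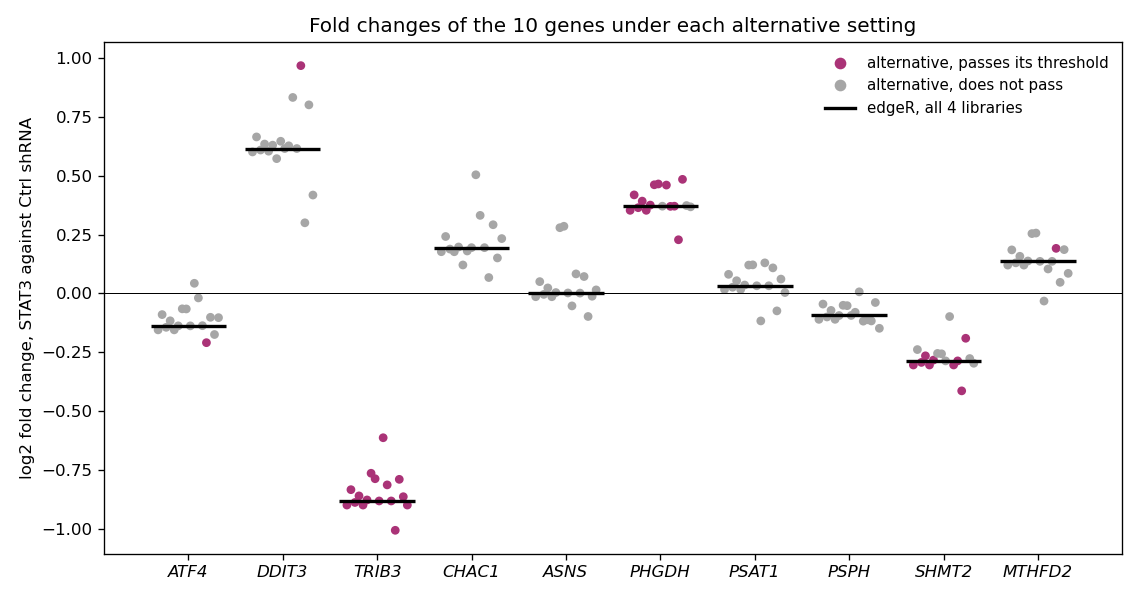
Log2 fold changes (STAT3 shRNA against Ctrl shRNA) of the 10 genes under up to 16 alternative settings (points, coloured where the alternative passes its threshold) beside the edgeR value on all 4 libraries (line). TRIB3 passes in 16 of 16, PHGDH in 13 and SHMT2 in 9, and CHAC1, ASNS, PSAT1 and PSPH in 0.

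Levels of the 10 genes were compared with each other only per length, by deposited FPKM. In Ctrl shRNA the order of mean FPKM was SHMT2 (147.6), ATF4 (132.2), PSAT1 (117.7), PHGDH (104.3), MTHFD2 (94.1), TRIB3 (39.2), ASNS (37.6), PSPH (27.2), DDIT3 (5.94) and CHAC1 (1.72). The order of PSAT1 and PHGDH, of PHGDH and MTHFD2, and of TRIB3 and ASNS differed between the 2 libraries, so it is not settled. SHMT2 was above ATF4 within each library (135.45 and 159.81 against 128.14 and 136.26), although their ranges overlapped. In STAT3 shRNA PHGDH was first (143.6), followed by PSAT1 (127.7), ATF4 (126.3) and SHMT2 (123.3), the last 3 overlapping between libraries, then MTHFD2 (112.2), ASNS (45.8), PSPH (26.2), TRIB3 (22.7), DDIT3 (9.21) and CHAC1 (1.95).

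Ratios of FPKM within a library were read next. PHGDH stood at 0.768 and 1.02 times PSAT1 in Ctrl shRNA and at 1.11 and 1.14 times in STAT3 shRNA, and at 0.722 and 0.693 times SHMT2 against 1.17 and 1.16 times. TRIB3 stood at 0.283 and 0.309 times ATF4 in Ctrl shRNA and at 0.172 and 0.188 times in STAT3 shRNA. The ratio of MTHFD2 to SHMT2 was 0.757 and 0.536 against 0.880 and 0.939. None of these 4 ratios overlapped between the groups, but by CPM 70.8% of all tested genes did not overlap either. Each of the 4 holds PHGDH, TRIB3 or SHMT2, which were called above, so they are no separate result. The ratios of ASNS to ATF4 (0.307 and 0.264 against 0.364 and 0.362) and of ATF4 to DDIT3 (17.6 and 29.7 against 16.4 and 11.7) did not overlap either. They hold none of the called genes, but FPKM and counts of ASNS differ as given above, and DDIT3 was scarce. The ratio of PSAT1 to PSPH overlapped (4.87 and 3.83 against 4.92 and 4.82). With 2 libraries a group the differences between ratios were not tested. Summed FPKM of PHGDH, PSAT1 and PSPH was 251.1 and 247.2 in Ctrl shRNA and 290.9 and 304.2 in STAT3 shRNA. Most of that difference lay in PHGDH (means of 104.3 and 143.6), and FPKM of PSAT1 and of PSPH overlapped between the groups. The summed FPKM of SHMT2 and MTHFD2 overlapped as well (238.1 and 245.5 against 225.02 and 245.9).

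Close relatives with overlapping reactions were read beside the members. SHMT1, the cytosolic counterpart of SHMT2, was at 150.9 and 170.0 CPM in Ctrl shRNA and at 143.0 and 135.3 CPM in STAT3 shRNA, a log2 fold change of -0.21 ± 0.09 (edgeR adjusted p = 0.109), which passed without Ctrl shRNA replicate 1 (0.00229). Its span overlaps SMCR8, which had 37.1% as many reads. The FPKM ratio of SHMT2 to SHMT1 overlapped between the groups (1.71 and 1.79 against 1.56 and 1.83). MTHFD2L, a mitochondrial paralog of MTHFD2, was far scarcer and fell by 0.53 on the log2 scale, from 13.6 and 13.8 to 9.72 and 9.24 CPM (edgeR adjusted p = 0.0205). The FPKM ratio of MTHFD2 to MTHFD2L was 11.4 and 9.23 in Ctrl shRNA and 16.2 and 22.3 in STAT3 shRNA. MTHFD1L, which completes formate release in mitochondria, fell by 0.49 (99.1 and 91.9 to 68.6 and 67.7 CPM; edgeR adjusted p = 0.00285), whereas the cytosolic MTHFD1 had a log2 fold change of -0.12 (edgeR adjusted p = 0.249), which was -0.22 and passed with a length offset (edgeR adjusted p = 0.042). MTHFD1L did not pass with the deposited FPKM (log2 fold change -0.49, limma-trend adjusted p = 0.0506). The call of MTHFD2L was lost without either STAT3 shRNA library (edgeR adjusted p 0.104 and 0.152), with DESeq2 (adjusted p = 0.0505) and with FPKM (0.0633, limma-trend).

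The wider pathway was read from 7 lists with 135 tested genes, of which 61 changed. The share over all tested genes, beside which each list share below is to be read, was 35.5%. A list count under an alternative is to be read beside all 15199 genes in that setting. Of these 2535 and 2494 changed with FPKM (pseudocounts of 1 and 0.1), 4445 with DESeq2 and 5122 with a GC offset. With 1 library left out the count over all genes moved as well, up without Ctrl shRNA replicate 1 and down without either STAT3 shRNA library. With the filter of 5 CPM in 2 libraries, 65 list genes and 4912 of all 11280 tested genes changed. No list was tested for an excess of changed genes. Among 28 tested genes of folate and one-carbon metabolism 4 rose, 7 fell and 17 did not pass (39.3% changed; median log2 fold change -0.06). SFXN2, a relative of the mitochondrial serine carrier SFXN1, rose 1.92-fold from 10.9 ± 0.927 to 20.9 ± 0.413 CPM (SD, n = 2 each), and ALDH1L2, the mitochondrial formyltetrahydrofolate dehydrogenase, 2.20-fold from 2.06 CPM. AHCY, which clears S-adenosylhomocysteine, fell 1.60-fold from 359.9 to 224.7 CPM, and MTHFD2L, named above, 1.44-fold. Without 1 library the count of changed genes ran from 5 (without STAT3 shRNA replicate 2) and 6 (without replicate 1) to 19 (without Ctrl shRNA replicate 1), and ALDH1L2 was lost without either STAT3 shRNA library (edgeR adjusted p 0.0518 and 0.0916). With the deposited FPKM the count was 5 or 4 (pseudocount 1 or 0.1), and ALDH1L2 had a log2 fold change of 0.49 against 1.14 (limma-trend adjusted p = 0.0856, pseudocount 1).

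Of 17 tested genes that make serine precursors or use serine 5 rose, 3 fell and 9 did not pass (47.1% changed; median -0.16). SERINC2, of a family first described as serine incorporators, rose 1.94-fold from 13.8 to 26.7 CPM, cystathionine gamma-lyase (CTH), which ends the route from serine to cysteine, 1.55-fold from 17.9 to 27.7 CPM, and SPTLC2, a subunit of the enzyme that starts sphingolipid synthesis from serine, 1.44-fold from 43.7 to 63.2 CPM. PTDSS2, a phosphatidylserine synthase, fell 1.84-fold from 138.3 to 75.3 CPM, choline dehydrogenase (CHDH) 1.53-fold, and PGAM1, the glycolytic mutase just below the branch point to serine, 1.44-fold from 967.2 to 673.5 CPM. The count was 5 without either STAT3 shRNA library, where CHDH was lost (edgeR adjusted p 0.0999 and 0.122). SPTLC2 did not pass with FPKM (log2 fold change 0.41, limma-trend adjusted p = 0.136), and CHDH had a log2 fold change of -1.26 against -0.62 with FPKM at a pseudocount of 0.1.

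Upstream of ATF4, 19 genes were tested, those of eIF2, its exchange factor, its kinases and phosphatases, and GCN1, IMPACT, DELE1, OMA1 and NCK1. Of these 4 rose, 3 fell and 12 did not pass (36.8% changed, median 0.04). EIF2AK3, the kinase PERK of the endoplasmic reticulum, rose 1.50-fold from 23.9 and 23.5 to 36.4 and 34.8 CPM (edgeR adjusted p = 0.00238). PPP1R15A (GADD34), the inducible phosphatase subunit that reverses eIF2 alpha phosphorylation, rose 1.54-fold from 35.1 and 37.02 to 57.0 and 54.3 CPM (adjusted p = 0.0013, edgeR). Its constitutive counterpart PPP1R15B fell 1.42-fold from 278.5 and 227.5 to 171.0 and 185.3 CPM (edgeR adjusted p = 0.00702). OMA1, a protease of mitochondrial stress signalling, rose 1.37-fold, and the eIF2 gamma subunit EIF2S3 and the exchange factor subunit EIF2B5 fell 1.21-fold and 1.19-fold. The count was 4 with DESeq2, 3 with the deposited FPKM, 11 without Ctrl shRNA replicate 1, and 2 and 3 without STAT3 shRNA replicates 1 and 2. Calls of OMA1, EIF2S3 and EIF2B5 were lost without either STAT3 shRNA library, that of OMA1 also without Ctrl shRNA replicate 2 and that of PPP1R15B without STAT3 shRNA replicate 1 (edgeR adjusted p 0.0742 to 0.353). With FPKM OMA1, PPP1R15B, EIF2S3 and EIF2B5 did not pass (limma-trend adjusted p 0.204, 0.0967, 0.266 and 0.0549). OMA1 also did not pass with DESeq2 or a GC offset, EIF2S3 with upper-quartile scaling, the 5 CPM filter or a length offset, and EIF2B5 with upper-quartile scaling, DESeq2 or the replicate block. EIF2S3 had a log2 fold change of -0.42 with a GC offset against -0.28, and EIF2AK3 0.93 against 0.59 with FPKM at a pseudocount of 0.1.

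Among 16 tested transcription factors of the ATF, C/EBP and AP-1 families, with which ATF4 and DDIT3 can pair or share sites, 2 rose, 5 fell and 9 did not pass (43.8% changed; median -0.15). ATF3, a stress-induced relative of ATF4, rose 1.99-fold from 17.3 and 22.0 to 38.1 and 40.2 CPM (edgeR adjusted p = 0.000641), and FOS 1.87-fold from 177.9 to 333.6 CPM. CEBPD fell 2.39-fold from 75.6 to 31.6 CPM, CEBPB, a frequent dimer partner of ATF4, 1.50-fold from 153.7 to 102.8 CPM, and the repressor JDP2 1.38-fold. ATF5, a relative that is also controlled in translation, had a log2 fold change of -0.13 (edgeR adjusted p = 0.325), with NUP62 on an overlapping span holding 386% as many reads. With a GC offset CEBPB had a log2 fold change of -0.19 against -0.58 and did not pass (edgeR adjusted p = 0.0711), and CEBPD had -0.78 against -1.26 and passed; ATF5 had 0.11. The count was 4 with the deposited FPKM and without either STAT3 shRNA library, and in each of these JDP2 was lost (adjusted p 0.0749 with limma-trend at a pseudocount of 1, 0.0778 and 0.132 with edgeR).

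**Figure D4:**
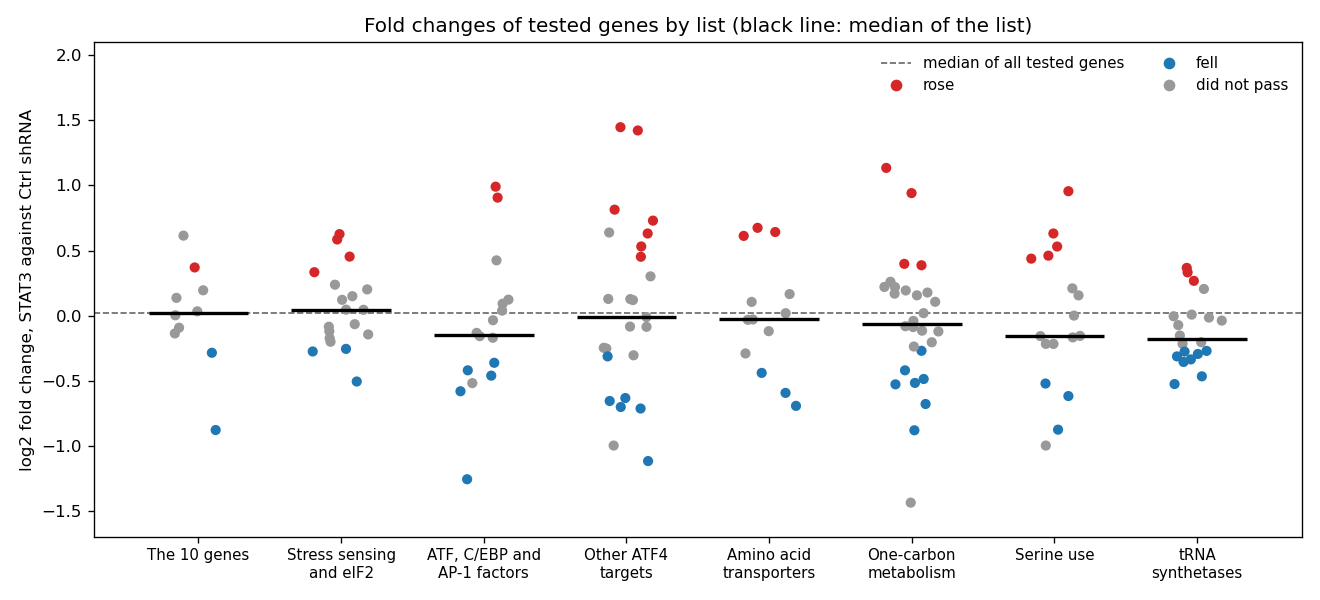
Log2 fold changes (STAT3 shRNA against Ctrl shRNA) of tested genes by list (points, coloured by the edgeR call), with the median of each list as a black line and that of all tested genes dashed. Every list holds genes that rose and genes that fell, and the list medians run from -0.18 (tRNA synthetases) to 0.04 (stress sensing and eIF2).

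Other known ATF4 targets went in both directions, 7 higher and 6 lower of 25 tested, with 12 that did not pass (52.0% changed; median -0.01). GDF15, a stress-induced cytokine, rose 2.73-fold from 15.6 ± 0.589 to 42.7 ± 3.67 CPM (SD, n = 2 each), FAM129A (NIBAN1), an inhibitor of apoptosis under stress, 2.68-fold from 4.40 to 11.8 CPM, and KLHL24, a ubiquitin ligase adaptor, 1.76-fold from 15.5 to 27.4 CPM. DDIT4, an inhibitor of mTOR complex 1, fell 2.17-fold from 527.7 to 243.0 CPM, VEGFA, the vascular growth factor, 1.64-fold from 97.4 to 59.4 CPM, and PYCR1, a mitochondrial enzyme of proline synthesis, 1.63-fold from 235.0 to 144.3 CPM. KLHL24 did not pass without STAT3 shRNA replicate 2 (edgeR adjusted p = 0.0637). With the deposited FPKM the count fell from 13 to 8: KLHL24 had a log2 fold change of 0.18 against 0.81 (limma-trend adjusted p = 0.669), VEGFA -0.29 against -0.71 (0.219) and PYCR1 -0.65 against -0.70 (0.0746). FAM129A had 0.74 with FPKM against 1.42, and PYCR1 -0.41 with a GC offset, and both passed there.

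Amino acid transporters were split as well, with 3 higher, 3 lower and 7 that did not pass of 13 tested (46.2% changed; median -0.03). The arginine carrier SLC7A2, the cystine carrier SLC7A11 and the serine and alanine carrier SLC1A4 rose 1.60-fold, 1.56-fold and 1.53-fold. SLC3A2, the shared heavy chain of several carriers, fell 1.62-fold from 599.6 to 370.7 CPM, its partner SLC7A5, which takes up leucine, 1.51-fold from 1730 to 1146 CPM, and the glutamine carrier SLC1A5 1.36-fold from 191.0 to 140.8 CPM. SLC1A5 did not pass without STAT3 shRNA replicate 1 (edgeR adjusted p = 0.0812), with a GC offset (log2 fold change -0.17 against -0.44, edgeR adjusted p = 0.126) or with the deposited FPKM (-0.19, limma-trend adjusted p = 0.170). SLC7A11 did not pass with FPKM (0.68, limma-trend adjusted p = 0.0588), and SLC7A5 had -0.33 with a GC offset against -0.59 and passed.

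Of 20 tested cytosolic aminoacyl-tRNA synthetases, several of which ATF4 induces, 3 rose, 8 fell and 9 did not pass (55.0% changed; median -0.18). Both subunits of the phenylalanine enzyme, FARSB and FARSA, fell 1.44-fold and 1.38-fold, and the alanine enzyme AARS 1.28-fold, while DARS, RARS and GARS rose 1.29-fold, 1.26-fold and 1.20-fold. The count was 2 and 1 without STAT3 shRNA replicates 1 and 2, 2 with the deposited FPKM and 7 with a GC offset. AARS, DARS, RARS and GARS were lost without either STAT3 shRNA library and FARSA without replicate 2 (edgeR adjusted p 0.0825 to 0.300). With FPKM FARSB had a log2 fold change of -0.19 against -0.53 (limma-trend adjusted p = 0.270) and DARS 0.17 against 0.37 (0.370), and AARS, RARS and GARS did not pass either (0.0597, 0.0624 and 0.124). With a GC offset DARS (0.19) and RARS (0.16) did not pass (edgeR adjusted p 0.0522 and 0.0914), while FARSA (-0.22 against -0.47) and AARS (-0.24 against -0.36) did.

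The core TGATGNAA shown above was found in promoter windows of 41.7% of the 12 amino acid transporters and 43.8% of the 16 synthetases that had a window, and in 9.09% of 22 other ATF4 targets. It was in 25% of 12 ATF, C/EBP and AP-1 factors, 5.88% of 17 upstream genes, 5.56% of 18 serine use genes and 3.7% of 27 one-carbon genes. The share of all genes with a window was 4.46%. Over the 10 genes and the lists together, 21 tested genes held it, of which 4 rose, 7 fell and 10 did not pass (median log2 fold change -0.02). The 96 tested genes without it comprised 18 that rose, 21 that fell and 57 that did not pass (median -0.05). In both sets the share changed lay above the 35.5% of all tested genes, more so with the core. These differences were not tested. Of the 4 genes whose site is printed, CHAC1 and ASNS did not pass, MTHFD1L fell and ATF3 rose.

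The 20 tested genes nearest to each member on either side were read for regional shifts. The stretches they cover are of unlike size, from 1.52 megabases around SHMT2 to 20.6 around PSPH and 31.1 around PHGDH, so not all are local. Their median log2 fold changes lay between -0.19 (around CHAC1) and 0.24 (around PSPH). Around TRIB3, close to the end of chromosome 20, 25 neighbours had a median of -0.08, with 4 higher and 6 lower, against -0.88 for TRIB3 itself. Around PHGDH the median of 40 neighbours was 0.16 with 6 higher and 3 lower, and around SHMT2 it was -0.13 with 6 higher and 10 lower, both of the same sign as the member and smaller. Around MTHFD2 14 of 40 neighbours fell and 4 rose, with a median of -0.08 against 0.14 for the gene. All these counts are to be read beside the 16.8% of all tested genes that rose and the 18.7% that fell.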

How the data were processed

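RNA sequencing libraries of HepG2 cells (2 Ctrl shRNA, 2 STAT3 shRNA) were analysed from tables of the whole series. The authors deposited 1 table of read counts that are whole numbers and not normalized, and another of FPKM values, units taken from the names of the deposited tables and, for the counts, from their values. Which aligner, counter, genome build, library kit and strand setting produced them is not given in the sources used here. Columns were matched by name to sample titles; "Si" in 2 column names was taken to mean STAT3 shRNA, which the STAT3 level fits.

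The fit of the counts used edgeR 4.0.16 under R 4.3.3 (TMM, filterByExpr, glmQLFit and glmQLFTest, two-sided, group only, common dispersion 0.00967). P-values were adjusted by Benjamini-Hochberg over 15199 genes with a threshold of 0.05. The fit was also run on simulated data with the same dispersion for every gene and library. That run cannot show how calls hold where the groups vary unequally, as they do here. The CPM are TMM-scaled. Within each group the 2 libraries differed beyond sampling noise (chi-square per degree of freedom 10.3 for Ctrl shRNA, 3.43 for STAT3 shRNA). Implied length is reads divided by FPKM and by total reads. Positions and transcripts are from GENCODE 29 (GRCh38), in which 25996 of 26420 Ensembl IDs were found; promoter windows are from RefSeq. Copies were sought with blastn 2.17.0 (identity of 95% or more along 50% or more of the member's longest transcript).

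The members and lists were chosen with earlier results of these data known, so no list is independent evidence and no set test was made. Genes named from the lists were up to 3 with the largest rise and 3 with the largest fall among those that passed with a mean of at least 1 CPM, beside the close relatives; some genes this rule picks are not reported here. The STAT element and the printed sites were chosen after the data were seen.

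Alternatives were RLE and upper-quartile scaling, no filter, 5 CPM in 2 libraries, DESeq2 1.42.0, the replicate number as a block, limma-trend (limma 3.58.1) on FPKM as log2 with a pseudocount of 1 or 0.1, a threshold of 0.01, GC and length offsets, sums over copies, and leaving out each library. FPKM results are at a pseudocount of 1 unless stated. In the leave-out fits, a lone library was assumed to vary like the other group.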

Additional observations from a re-analysis of the deposited data

How the results depend on the processing

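Of 159 values of the 10 genes under alternatives, 135 kept direction and call, 10 lost a call, 3 gained one and 11 changed sign; for 46 other genes picked by the naming rule these were 594, 92, 2 and 1 of 689. Sign changes, all of values that did not pass in either fit, were 0.0432 for ATF4, -0.0527 for ASNS, -0.116 for PSAT1, -0.0321 for MTHFD2 and 0.109 for ATF5 with a GC offset; -0.0137 with RLE scaling, -0.0137 with DESeq2 and -0.0038 without a filter for ASNS; 0.0070 for PSPH with a length offset; and -0.0738 for PSAT1 without Ctrl shRNA replicate 2. Without 1 library ASNS ranged from -0.0975 to 0.0719 and changed sign in 2 of the 4 cases. Genes changed numbered 5396 in all, 2535 and 2494 with FPKM at pseudocounts of 1 and 0.1, 2897 at a threshold of 0.01, and 2527 to 7291 without 1 library. Members changed numbered 3, 1 at a threshold of 0.01 (TRIB3), and 1 to 6 without 1 library. List genes changed numbered 61, 30 and 29 with FPKM, 37 at 0.01, and 33 to 85 without 1 library. With the replicate number as a block 5447 genes, 3 members and 63 list genes changed; libraries sharing a number deviated with a correlation of -0.03 over genes, so the numbers were not taken to pair them. The cause of these differences between settings was not tested. Reads of DDIT3 and CHAC1 limit what can be said of them; sums over copies changed no call of the 10 genes.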
